A study of Mus musculus with 24 samples.

Results

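The comparison described here sets mouse livers that lost the growth hormone receptor (GHR) in hepatocytes and were given a constitutively active STAT5b (aHepGHRkd_STAT5bCA) against intact livers (Control). It takes 12 of the 24 libraries of the series, 6 in each group, and all 20879 coding features among the 75794 features read. Every library was assigned by its labels. The question is which genes stay away from the intact level when the receptor is missing and STAT5b is active, and which pass beyond it. All animals were C57BL/6 mice carrying GHRfl/fl, were 10 to 12 weeks old when injected with adeno-associated virus, and gave liver 7 days later on chow. Control mice received a Null vector only, at a total dose of 3.5 in units of 1e+11 genome copies. aHepGHRkd_STAT5bCA mice received the same total, of which Cre made up 1.5 and FLAG-tagged mouse STAT5bCA 0.75. Livers with receptor loss alone (aHepGHRkd, Cre at 1.5, 6 libraries) and with Cre plus rat IGF1 at 2.0 (aHepGHRkd_rIGF1, 6 libraries) are used for reference. Control mice therefore lack Cre as well as the receptor loss. Each vector used the thyroxine-binding globulin promoter, which works in hepatocytes, so other liver cells keep their receptor. The samples are labelled male, whereas the protocol names mice of both sexes. The Y-linked genes Ddx3y, Eif2s3y, Kdm5d and Uty were at 22.9, 42.1, 4.50 and 4.12 TPM in Control and at 21.1, 42.7, 4.16 and 3.63 TPM in aHepGHRkd_STAT5bCA.

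Growth hormone (GH) binds its receptor on hepatocytes and activates the kinase JAK2, which phosphorylates STAT5b. The phosphorylated factor enters the nucleus and switches on Igf1, Igfals and the feedback inhibitors Socs2 and Cish. In rodents the timing of GH sets the sex bias of liver: male secretion is pulsatile and female secretion is nearly continuous, and STAT5b activity in liver follows these rhythms. A constitutively active STAT5b signals without the receptor and without pulses.

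Each group has a single value per gene in the authors' deposited table, in TPM, a level corrected for transcript length and library size. Values per animal were not used here, so this pair of groups has no error and no test. Folds against Control are ratios of (TPM + 0.1) and describe these groups only. "Higher" or "lower" than Control below means at least 2-fold, in genes where the larger of both values was 1 TPM or more. The authors did test aHepGHRkd over Control and aHepGHRkd_STAT5bCA over aHepGHRkd with edgeR, and "rose", "fell" and "called" are kept for genes with an adjusted p under 0.05 in those comparisons of 6 against 6 libraries. These comparisons share the aHepGHRkd group, and the first shares its Control group with every fold given here. Since this is whole liver, fewer cells of a type and less RNA per cell cannot be told apart.

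The cell markers differed little between the groups. All 18 hepatocyte identity genes, albumin (Alb) and Hnf4a among them, lay within 1.5-fold of Control, although the labels name the tissue as liver and the cell type as hepatocyte. No marker of stellate cells (13 measured), Kupffer cells (15), sinusoidal endothelium (15), cholangiocytes (6), lymphocytes (2) or neutrophils (4) stood 2-fold from Control. The summed level of the Kupffer list was 223 TPM in Control and 270 TPM in aHepGHRkd_STAT5bCA, and that of the endothelial list 133 and 135 TPM. Of 6 erythrocyte markers, the haem synthesis gene Alas2 alone was lower, at 96.3 against 37.2 TPM, while both haemoglobin alpha and both beta genes stayed within 1.5-fold.

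The livers with receptor loss and STAT5bCA were close to Control across most genes and far from it for a small set. Of 10879 coding genes at 1 TPM or more in either group, 10339 (95.0%) lay within 1.5-fold, and the median log2 fold was -0.01. Higher than Control were 145 genes (1.33%) and lower were 82 (0.754%). For the other groups set against the same Control, the counts were 97 higher and 132 lower of 10859 genes with receptor loss alone, and 122 and 142 of 11016 with rat IGF1. Fewer genes were thus lower, and more were higher, with STAT5bCA than in either other group by this rule. The last gene inside the rule was Mgst3 (20.2 against 40.9 TPM) on the higher side and Zfp972 (4.73 against 2.30 TPM) on the lower side. Cdca3 (1.78 against 3.66 TPM) and Slc22a28 (7.54 against 3.73 TPM) fell just outside it.

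**Figure D1:**
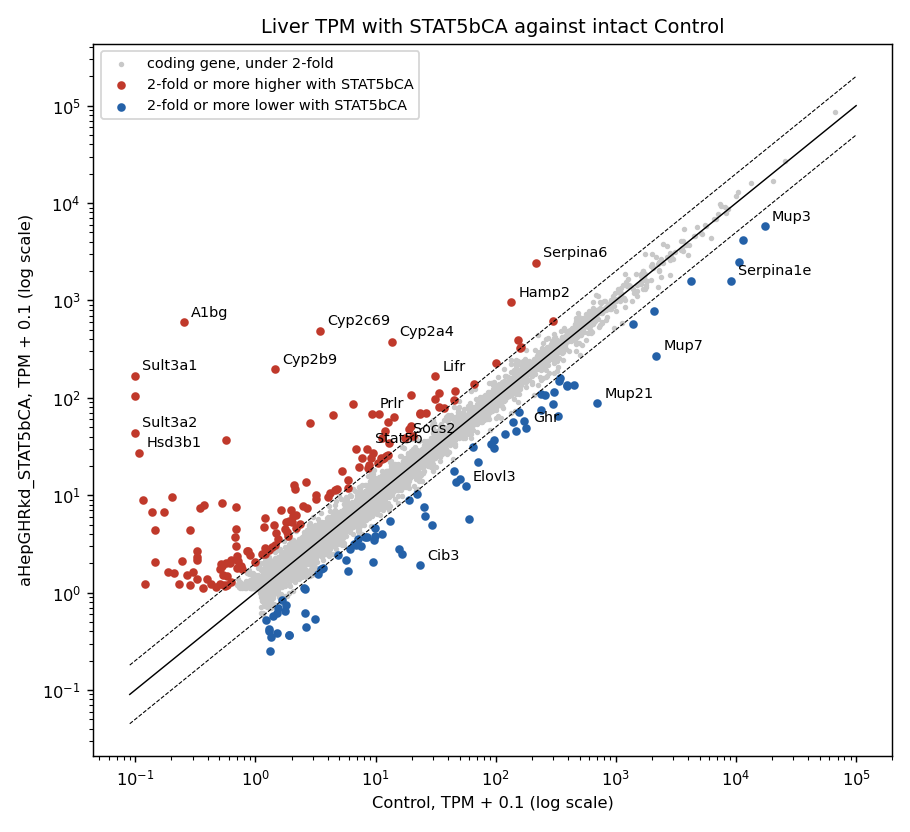
Coding genes at 1 TPM or more by TPM + 0.1 in Control (x axis, log scale) and in aHepGHRkd_STAT5bCA (y axis, log scale), 1 point per gene and 1 value per group, with a solid line at equality and dashed lines at 2-fold. The 145 higher (red) and 82 lower (blue) genes lie outside the dashed lines, and several of the higher ones, such as A1bg at 0.154 against 600 TPM, start from near 0 in Control.

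The receptor and its pathway came first. Ghr (chr15:3267755-3533352, mm9) was at 180 TPM in Control, 55.1 TPM with receptor loss, 58.4 TPM with rat IGF1 and 49.4 TPM with STAT5bCA. It stood 3.63-fold below Control and did not move with STAT5bCA (ratio to aHepGHRkd 0.924, adjusted p = 1, the authors' deposited table). The value covers the whole collapsed gene and every liver cell, so it is not a measure of the deleted part. Stat5b (chr11:100642045-100711895, mm9) had 8.44, 10.6, 12.1 and 30.02 TPM across those groups, a level 3.53-fold above Control that includes reads of the mouse transgene. It rose 2.91-fold over aHepGHRkd (adjusted p = 2.98e-39, the authors' deposited table). The kinase Jak2 was at 3.96 and 3.67 TPM in Control and aHepGHRkd_STAT5bCA, and Stat3 at 72.9 TPM in both, while Stat5a, the close relative of Stat5b, was at 5.46 and 6.97 TPM. Apart from Ghr and Stat5b, the member of this group of 7 that stood away from Control was the prolactin receptor Prlr, described below with the genes that passed the intact level.

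The secreted IGF1 system was mostly near the intact level. Igfals, the acid-labile subunit that holds IGF1 in the blood, went from 93.0 TPM in Control to 8.37 TPM with receptor loss and was at 73.8 TPM with STAT5bCA. Its rise over aHepGHRkd was 9.06-fold (adjusted p = 3.23e-44, the authors' deposited table). Igf1 itself, the circulating growth factor, was at 143, 26.2 and 96.4 TPM in these groups, and its ratio of 3.67 over aHepGHRkd did not pass (adjusted p = 0.162, the authors' deposited table). The binding proteins Igfbp1, Igfbp2, Igfbp4, Igfbp5 and Igfbp7 were within 1.5-fold of Control. Igfbp3 was between 1.5- and 2-fold lower (8.75 against 5.70 TPM), so none of the 8 listed genes reached 2-fold. Outside that list, the fetal growth factor Igf2 (0.185 against 1.10 TPM) and Igfbp6 (0.404 against 1.13 TPM) were higher than Control near the 1 TPM floor, and of these Igf2 rose over aHepGHRkd (7.76-fold, adjusted p = 1.58e-05, the authors' deposited table).

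The feedback inhibitors split. Socs2, a STAT5 target that limits GH signalling, was at 17.6 TPM in Control, 1.48 TPM with receptor loss and 38.3 TPM with STAT5bCA, and so stood 2.16-fold above Control. Cish, another inhibitor of cytokine signalling switched on by STAT5, was at 9.21, 0.468 and 5.95 TPM, below Control by between 1.5- and 2-fold. Both had fallen with receptor loss (ratios 0.0833 and 0.0505, adjusted p = 5.72e-38 and 3.64e-53) and rose with STAT5bCA (26.7-fold and 13.2-fold, adjusted p = 1.64e-89 and 1.56e-33, the authors' deposited table). Both moved towards Control, and Socs2 alone of the pair passed it. Socs1 was low in Control (0.602 TPM) and higher with STAT5bCA (2.26 TPM), without having been called after receptor loss. Socs3 to Socs7 lay within 1.5-fold of Control.

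Receptor loss lowered 133 coding genes at 1 TPM or more by at least 2-fold (1.21% of 10961 genes at 1 TPM in Control, aHepGHRkd or aHepGHRkd_STAT5bCA, the authors' deposited table) and raised 91 (0.830%). Of the 133, 57 were still 2-fold or more below Control with STAT5bCA (42.9%), 27 were between 1.5- and 2-fold below, 41 were within 1.5-fold, 1 was between 1.5- and 2-fold above and 7 were 2-fold or more above. Of the 91 raised genes, 57 were still 2-fold or more above Control (62.6%), 15 were between 1.5- and 2-fold above, 19 were within 1.5-fold and 0 lay on the lower side at 1.5-fold or more. By the same TPM rule, 124 of the 133 and 89 of the 91 were 2-fold away in aHepGHRkd itself, and 107 and 69 in aHepGHRkd_rIGF1. Back within 1.5-fold were thus 30.8% of the lowered and 20.9% of the raised genes, and no raised gene passed Control on the other side. With no fold limit on receptor loss, 239 of 373 lowered and 204 of 317 raised genes were within 1.5-fold. The larger share among lowered genes is not seen there, so it depends on that limit. Control is part of both the choice and the placing of these genes, so the counts are a description.

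**Figure D2:**
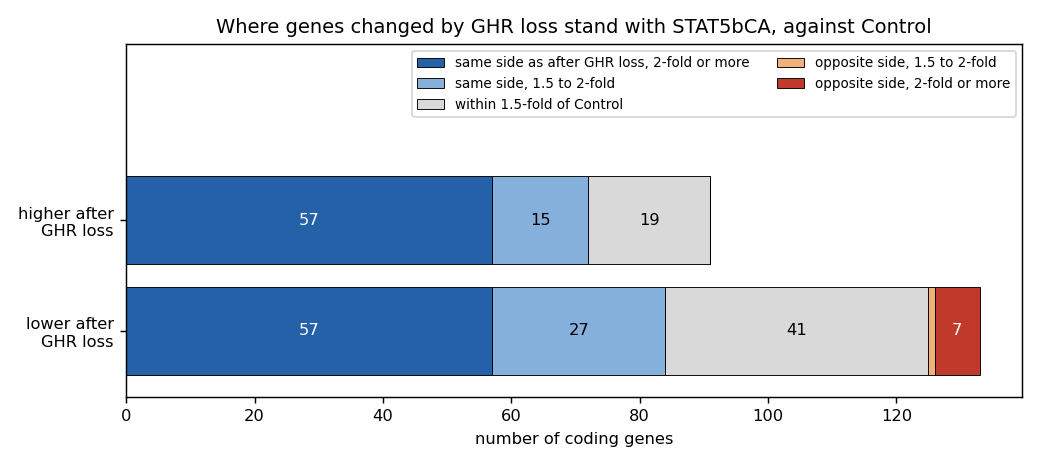
Numbers of coding genes (x axis) lowered or raised at least 2-fold by receptor loss (1 stacked bar each), coloured by where their TPM stood with STAT5bCA relative to Control. The segment of 57 genes still 2-fold or more away is the widest in both bars, and the segment of 7 genes beyond Control is in the bar of lowered genes, where the unlabelled narrow segment is 1 gene.

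Among the 41 lowered genes back within 1.5-fold of Control, 36 rose over aHepGHRkd in the authors' deposited table (2.65% of all 10961 genes rose) and 5 were not called, among them Igf1, Ccdc30, Nlrp12 and Wfdc21. A rise is largely built into the choice of these genes, so nothing is read from that share. Cyp7b1, an oxysterol hydroxylase of bile acid synthesis, was at 141 TPM in Control, 31.9 TPM with receptor loss and 146 TPM with STAT5bCA. Keg1, a glycine N-acyltransferase relative, was at 129, 15.1 and 105 TPM, and the magnesium transporter relative Nipal1 at 4.62, 0.177 and 4.69 TPM. The liver transcription factor Onecut1 (HNF6) was at 9.72, 3.45 and 8.78 TPM. These 4 genes rose 4.74-, 7.31-, 26.1- and 2.64-fold over aHepGHRkd (adjusted p = 2.88e-28, 3.77e-33, 5.59e-66 and 0.000260, the authors' deposited table). Dntt, the terminal nucleotidyltransferase, was the 1 gene between 1.5- and 2-fold above Control, at 1.71, 0.733 and 2.68 TPM.

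The major urinary proteins (Mup), lipocalins that male mice excrete as scent signals, made up 14 of the 57 lowered genes still 2-fold or more below Control. Their genes are near-identical copies, so reads may be shared between them and single values are uncertain. Summed over 21 Mup features, the level was 32233 TPM in Control, 9481 TPM with receptor loss, 11273 TPM with rat IGF1 and 9025 TPM with STAT5bCA, which is 3.22% of all transcripts in Control and 0.902% with STAT5bCA. The Mup sum stood 3.57-fold below Control, as a plain ratio of sums, and 17 of the 19 members at 1 TPM were lower. Mup7 (chr4:60079341-60083347, mm9) was at 2162, 127, 156 and 271 TPM in the same 4 groups and Mup21 (chr4:61808866-61811875) at 696, 84.5, 86.4 and 88.2 TPM. Mup3, the most abundant member in Control, was at 17395, 4892, 5318 and 5763 TPM. None of the 3 passed the test against aHepGHRkd (adjusted p = 1 for each, the authors' deposited table). Mup20, the male pheromone darcin, was at 10536, 3964, 5344 and 2462 TPM and fell further with STAT5bCA (ratio to aHepGHRkd 0.644, adjusted p = 0.0240, the authors' deposited table). Chromosome 4, which carries the Mup cluster, held 18 of the 57 genes.

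Outside the Mup cluster, 14 of the 57 had risen over aHepGHRkd without coming within 2-fold of Control. Hsd3b5, a male-specific hydroxysteroid dehydrogenase, was at 96.0 TPM in Control, 0.169 TPM with receptor loss and 30.6 TPM with STAT5bCA. Slco1a1, an organic anion uptake carrier, was at 147, 3.20 and 45.5 TPM, and the selenium-binding protein Selenbp2 at 446, 18.7 and 137 TPM. They rose 184-, 14.7- and 7.56-fold over aHepGHRkd (adjusted p = 5.18e-182, 6.75e-87 and 4.97e-39, the authors' deposited table) and were still 3.13-, 3.22- and 3.27-fold below Control. Serpina1e, a male-biased paralog of alpha-1-antitrypsin that may share reads with its copies, was at 9135, 112 and 1595 TPM and rose 15.003-fold (adjusted p = 1.24e-26, the authors' deposited table). The 6 Serpina1 features summed to 27745 TPM in Control and 18243 TPM with STAT5bCA, and the 2 Ces3 carboxylesterases to 1785 and 714 TPM. The fatty acid hydroxylases Cyp4a12a and Cyp4a12b, again near copies, were at 237 and 91.9 TPM in Control and at 74.1 and 33.1 TPM with STAT5bCA. All 6 single genes given here, Hsd3b5 to Cyp4a12b, had thus risen and still stood below Control, by 2.77- to 5.73-fold.

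Other members of the 57 showed no rise. Cib3, a calcium-binding protein of the CIB family (chr8:74728234-74736736, mm9), was at 23.3 TPM in Control, 2.71 TPM with receptor loss and 1.82 TPM with STAT5bCA, 12.2-fold below Control. The steroid 5-alpha-reductase Srd5a1 was at 70.8, 17.8 and 21.7 TPM, and the epidermal growth factor receptor Egfr at 140, 40.8 and 55.8 TPM. None of these 3 passed the test against aHepGHRkd (adjusted p = 1, 0.403 and 0.377, the authors' deposited table). Elovl3, a fatty acid elongase with a male bias, was at 56.3, 26.7 and 12.3 TPM and fell further with STAT5bCA (ratio 0.479, adjusted p = 0.00341, the authors' deposited table). With Mup20 it was 1 of the 2 genes of the 57 that fell. The glutathione transferases Gstp1 (4245 against 1599.5 TPM in Control and aHepGHRkd_STAT5bCA) and Gstp2 (64.8 against 31.3 TPM) were also in the class, with reads that near copies may share. Their copy Gstp3 stood on the other side, at 33.4 TPM in Control and 79.9 TPM with STAT5bCA, and had risen with receptor loss (2.79-fold, adjusted p = 7.50e-23, the authors' deposited table). The family of 3, which Gstp1 dominates, summed to 4343 and 1711 TPM.

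**Figure D3:**
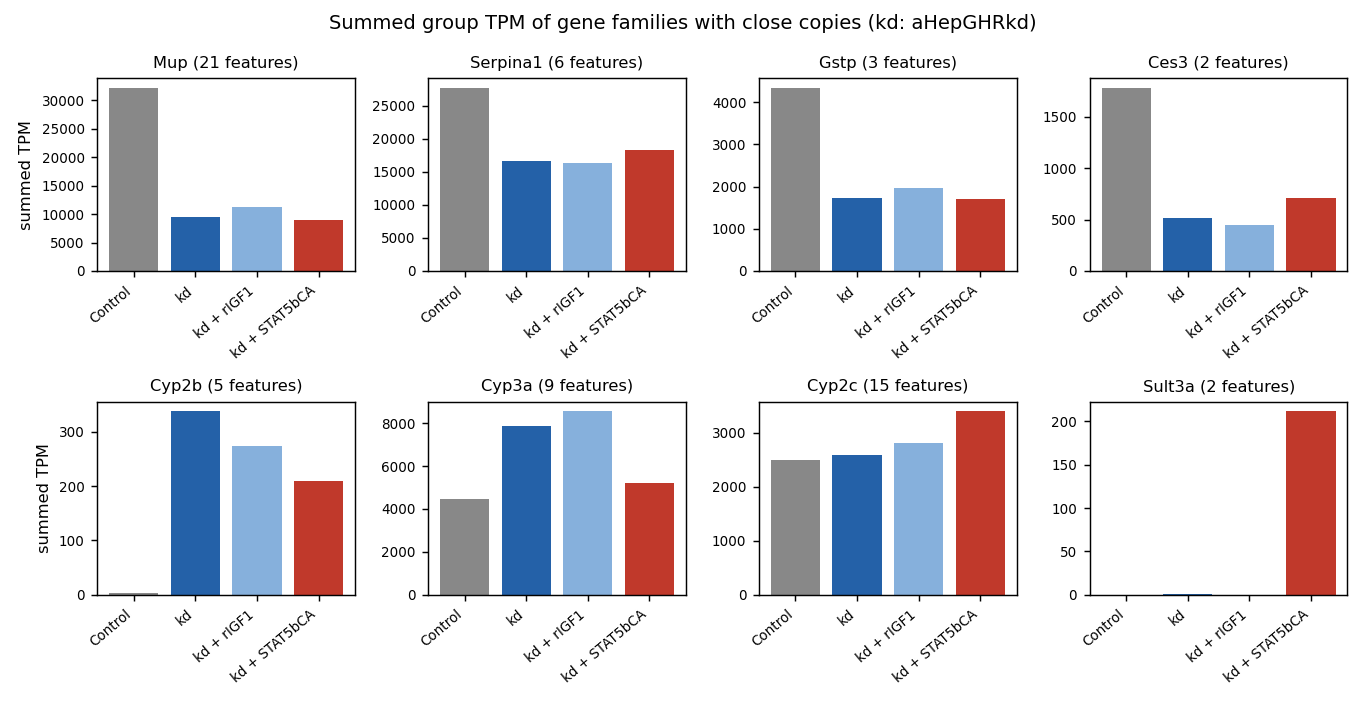
Summed TPM (y axis, linear, own scale per panel) of 8 gene families with close copies in the 4 groups, 1 bar per group with no error available. The Mup sum is 32233 TPM in Control and 9025 TPM with STAT5bCA, the Cyp2b sum 3.18 and 210 TPM, and the Sult3a sum is 0 in Control and 212 TPM with STAT5bCA.

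All 7 lowered genes that passed Control rose over aHepGHRkd. Prlr, the receptor for prolactin (chr15:10106993-10278935, mm9), was at 9.26 TPM in Control, 4.19 TPM with receptor loss, 3.55 TPM with rat IGF1 and 68.5 TPM with STAT5bCA. Lifr, the receptor for leukaemia inhibitory factor (chr15:7079572-7147489), was at 31.4, 13.7, 14.8 and 167 TPM. They stood 7.33- and 5.29-fold above Control and had risen 16.9- and 12.6-fold over aHepGHRkd (adjusted p = 1.21e-75 and 1.03e-185, the authors' deposited table). Cux2, a homeodomain repressor of male-biased genes in female mouse liver (chr5:122310225-122499860), was at 0.273, 0.0756, 0.126 and 7.82 TPM. It was low in Control, so its log2 fold of 4.41 became 2.79 with a pseudocount of 1 TPM and 4.85 by the product of the authors' 2 deposited ratios. Of the female-biased P450 genes, Cyp2c69 (chr19:39917150-39961259) was at 3.37, 0.583, 0.416 and 490 TPM and Cyp2c40 at 10.6, 2.33, 2.13 and 67.9 TPM, values that near copies in the Cyp2c cluster make uncertain. The whole Cyp2c family summed to 2497 TPM in Control and 3395 TPM with STAT5bCA, a plain ratio of 1.36. Socs2, given above, was another of the 7. The order of Control, aHepGHRkd and aHepGHRkd_STAT5bCA in these genes follows from how they were chosen. The rIGF1 group, which the choice did not use, was below Control in each of these 6.

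**Figure D4:**
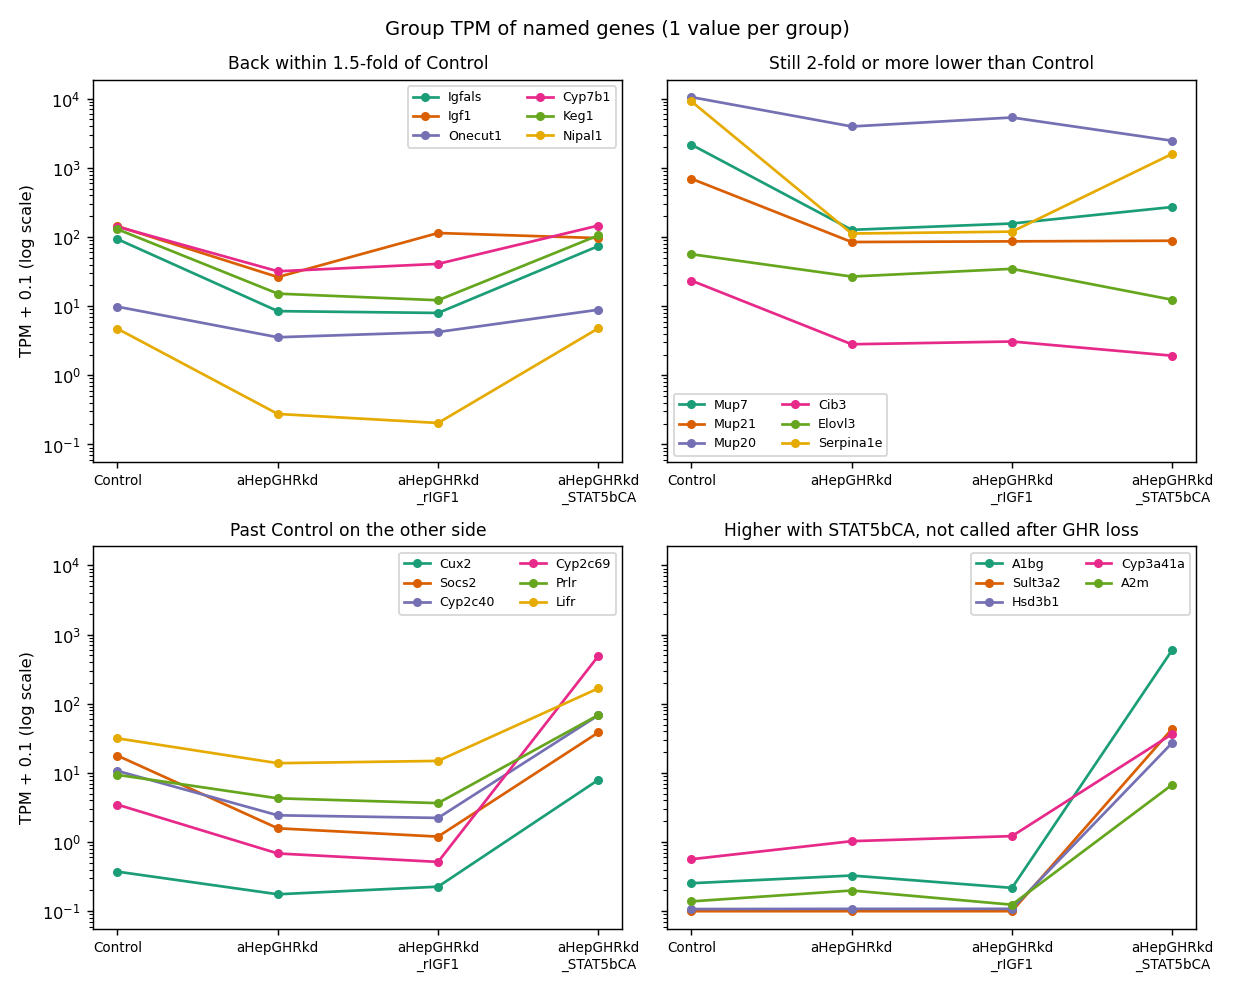
TPM + 0.1 (y axis, log scale) of single genes in Control, aHepGHRkd, aHepGHRkd_rIGF1 and aHepGHRkd_STAT5bCA (x axis), 1 value per group, joined by lines within a gene, in 4 panels by class. Genes past Control, such as Cyp2c69 at 3.37 and 490 TPM, cross above their Control level in the group with STAT5bCA, while Mup7 stays low at 271 against 2162 TPM.

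Of the 57 raised genes still 2-fold or more above Control, 45 were not called against aHepGHRkd, 8 rose further (2.65% of all genes rose) and 4 fell (0.739% fell). Cyp2b9, a female-biased P450, was at 1.35 TPM in Control, 287 TPM with receptor loss, 244 TPM with rat IGF1 and 196 TPM with STAT5bCA, and its near copy Cyp2b13 at 0.0152, 36.5, 13.99 and 8.91 TPM. Neither fall passed (ratios 0.699 and 0.243, adjusted p = 0.987 and 0.0931, the authors' deposited table), and the Cyp2b family stood 66.1-fold above Control as a plain ratio of summed TPM. Cyp2b10, which the xenobiotic receptor CAR controls, did fall over aHepGHRkd (ratio 0.389, adjusted p = 4.67e-08, the authors' deposited table), from 14.1 to 5.27 TPM against 1.80 TPM in Control. Hamp2, a copy of Hamp, was at 134, 1258, 1092 and 953 TPM and the fatty acid transporter Cd36 at 19.6, 57.4, 46.9 and 51.3 TPM. Both stood in all 3 groups without the receptor above their Control level, by 7.09- and 2.61-fold with STAT5bCA. Hamp itself, with which Hamp2 may share reads, was at 5234, 8268, 6867 and 4853 TPM and so near Control with STAT5bCA. The 2 Hamp features summed to 5368 TPM in Control and 5806 TPM with STAT5bCA.

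Among the 8 that rose further were several female-biased genes. Sult3a1, a sulfotransferase (chr10:33577528-33599281, mm9), was listed at 0 in Control and at 0.228, 0.154 and 168 TPM in the other groups. Cyp2a4, a steroid 15-alpha-hydroxylase, was at 13.7, 44.2, 37.9 and 378 TPM, with reads that its copy Cyp2a5 may share. Serpina6, the corticosteroid-binding globulin of plasma (chr12:104884841-104895428), was at 216, 494, 419 and 2452 TPM. It stood 11.4-fold above Control and had risen 5.14-fold over aHepGHRkd (adjusted p = 1.14e-74, the authors' deposited table). That both changes were rises follows from how the 8 were chosen, and Sult3a1 and Aldh3b3 reached 1 TPM in the STAT5bCA group alone among the 3 groups used to choose them. Cyp3a44 (2.72, 5.70, 6.15 and 54.8 TPM) and Cyp3a16 (6.39, 14.2, 13.8 and 85.9 TPM) were likewise highest with STAT5bCA, while the Cyp3a family in sum was at 4463 TPM in Control and 5220 TPM with STAT5bCA. Cyp2a22, Aldh3b3 and Eda2r complete the 8.

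More of the 145 higher genes were not called after receptor loss (77) than were raised by it (61, where 2.89% of all genes were called higher and 3.4% lower), and the remaining 7 are those that passed Control. Of the 77, 58 rose over aHepGHRkd (2.65% of all 10961 genes rose). A rise is largely built into the choice of these genes, so nothing is read from that share. A1bg, alpha-1-B glycoprotein, which is female-specific in mouse liver (chr15:60749144-60752825, mm9), was at 0.154 TPM in Control, 0.228 TPM with receptor loss, 0.117 TPM with rat IGF1 and 600 TPM with STAT5bCA. The sulfotransferase Sult3a2 was listed at 0 in the other 3 groups and at 43.5 TPM with STAT5bCA. Hsd3b1, a hydroxysteroid dehydrogenase of steroid-producing organs, was at 0.00737, 0.00803, 0.00817 and 27.2 TPM. All 3 rose over aHepGHRkd with an adjusted p of 7.66e-104 or smaller in the authors' deposited table, and all 3 were at or near 0 in the intact liver. They passed the 1 TPM floor through the STAT5bCA group alone. The near copies Cyp3a41a and Cyp3a41b were at 0.464 and 0.101 TPM in Control and at 36.4 and 9.41 TPM with STAT5bCA. The protease inhibitor gene A2m (0.0386 against 6.66 TPM) and the zinc finger repressor Snai3 (0.188 against 4.27 TPM) were further members, with 2010106E10Rik (0.0720 against 6.62 TPM) and A930007A09Rik (0.0453 against 4.31 TPM).

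Lower than Control without having been called after receptor loss were 19 genes, of which 4 fell over aHepGHRkd (0.739% of all genes fell). A fall is likewise favoured by the choice of these genes. The male-biased P450 gene Cyp2d9, with copies in the Cyp2d cluster, was at 2059 TPM in Control, 1528 TPM with receptor loss, 1713 TPM with rat IGF1 and 778 TPM with STAT5bCA. Cyp2u1, another P450, was at 7.09, 7.03, 7.59 and 3.42 TPM. They fell over aHepGHRkd by ratios of 0.523 and 0.501 (adjusted p = 0.000527 and 7.89e-05, the authors' deposited table). Omd, an extracellular matrix proteoglycan, was at 2.51 against 0.994 TPM and Lmod2, a muscle actin regulator, at 1.40 against 0.522 TPM in Control and aHepGHRkd_STAT5bCA, close to the 1 TPM floor. The last 3 of the 4 lost the 2-fold difference with a pseudocount of 1 TPM.

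Promoters of 6 genes are printed as examples from the classes above. A1bg, Sult3a1 and Hsd3b1 were near 0 in Control and high with STAT5bCA, and Prlr had passed Control. Cish, a feedback gene, rose to under 2-fold from Control, and Mup7 was still low. Prlr was picked among the genes past Control because it held the STAT5 motif marked below. The others were chosen after their values were seen. How often the motif occurs among the 6 is therefore not its share in any class. Each covers 250 bases before to 50 bases after the transcription start in RefSeq's table of GRCm38.p6, a later build than the mm9 of the expression table. Capitals mark TTCNNNGAA, the core letters of the STAT5 motif, which is its own reverse complement, so that 1 search covers both strands. The windows are chr15:60921221-60921520 on the minus strand for A1bg, chr10:33857472-33857771 on the plus strand for Sult3a1, chr3:98859745-98860044 on the minus strand for Hsd3b1, chr15:10223656-10223955 on the plus strand for Prlr, chr9:107296409-107296708 on the plus strand for Cish and chr4:60070426-60070725 on the minus strand for Mup7.
A1bg: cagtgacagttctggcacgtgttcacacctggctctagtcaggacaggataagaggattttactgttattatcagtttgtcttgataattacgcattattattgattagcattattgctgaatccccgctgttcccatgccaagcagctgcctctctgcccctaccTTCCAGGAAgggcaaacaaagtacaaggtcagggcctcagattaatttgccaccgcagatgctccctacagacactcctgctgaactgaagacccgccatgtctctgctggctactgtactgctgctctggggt
Sult3a1: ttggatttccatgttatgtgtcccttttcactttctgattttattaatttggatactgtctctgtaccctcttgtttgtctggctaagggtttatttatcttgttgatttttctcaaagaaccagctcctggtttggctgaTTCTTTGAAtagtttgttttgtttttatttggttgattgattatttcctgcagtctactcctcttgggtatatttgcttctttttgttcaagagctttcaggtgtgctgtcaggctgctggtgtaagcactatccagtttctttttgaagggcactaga
Hsd3b1: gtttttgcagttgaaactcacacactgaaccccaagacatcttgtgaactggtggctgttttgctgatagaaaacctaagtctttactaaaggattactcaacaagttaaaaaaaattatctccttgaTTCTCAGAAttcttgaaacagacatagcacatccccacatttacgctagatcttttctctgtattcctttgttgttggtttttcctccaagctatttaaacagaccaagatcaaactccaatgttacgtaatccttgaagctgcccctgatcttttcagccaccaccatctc
Prlr: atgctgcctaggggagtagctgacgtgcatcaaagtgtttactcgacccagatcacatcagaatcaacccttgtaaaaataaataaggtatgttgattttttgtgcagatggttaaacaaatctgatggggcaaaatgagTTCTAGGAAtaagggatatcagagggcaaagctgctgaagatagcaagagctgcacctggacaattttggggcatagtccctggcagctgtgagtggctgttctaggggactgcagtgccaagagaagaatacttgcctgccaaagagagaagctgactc
Cish: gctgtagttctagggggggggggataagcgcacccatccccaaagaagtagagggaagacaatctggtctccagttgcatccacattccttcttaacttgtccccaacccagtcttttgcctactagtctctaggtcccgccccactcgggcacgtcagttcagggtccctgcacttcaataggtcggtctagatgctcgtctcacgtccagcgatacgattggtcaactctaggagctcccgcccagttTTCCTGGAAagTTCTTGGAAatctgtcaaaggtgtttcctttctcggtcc
Mup7: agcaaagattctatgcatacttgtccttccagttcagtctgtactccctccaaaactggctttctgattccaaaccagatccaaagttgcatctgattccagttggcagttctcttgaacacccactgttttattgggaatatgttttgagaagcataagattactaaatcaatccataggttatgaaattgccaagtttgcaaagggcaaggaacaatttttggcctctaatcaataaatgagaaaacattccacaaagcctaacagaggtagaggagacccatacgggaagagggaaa
The motif began 84 bases before the start in A1bg, 109 before in Sult3a1, 122 before in Hsd3b1 and 110 before in this promoter of Prlr, the 1 of 3 listed that held it. Cish held it at 0 and 11 bases after the start, and the Mup7 window held none. Of the 145 higher genes, 109 had a promoter in the table and 14 of these held the motif (12.8%). Among the lower genes it was 2 of 55 (3.64%), and among all coding genes at 1 TPM 722 of 8763 (8.24%). Of all 32851 promoters listed, 2726 held it (8.30%). By class the count was 6 of 42 for the genes not called after receptor loss that rose with STAT5bCA. It was 4 of 43 for the raised genes still high and 1 of 38 for the lowered genes still low. Among the lowered genes that passed Control it was 1 of 5, and that gene was Prlr. Sult3a2, Cyp2c69, Cyp2b9 and Cyp3a41a, also high with STAT5bCA, held none in their listed promoters. Such a match is a description of letters in a short window, and its absence says nothing about binding elsewhere.

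The genes of known sex bias were then counted as lists, which were written with earlier results of these data known. Of 26 male-biased liver genes at 1 TPM, 19 were lower than Control with STAT5bCA (0.754% of all coding genes were), 1 was higher and 3 lay within 1.5-fold. Their median log2 fold was -1.44 against -0.01 for all coding genes. With receptor loss 21 of the 26 fell in the authors' deposited table, beside 3.4% of all 10961 genes, and with STAT5bCA 12 rose and 5 fell over aHepGHRkd, beside 2.65% and 0.739%. The higher member was Moxd1, a monooxygenase relative of dopamine beta-hydroxylase, at 0.0466 against 1.94 TPM. Of 31 female-biased genes, 26 were higher than Control (1.33% of all coding genes were), 1 was lower and 2 lay within 1.5-fold. Their median log2 fold was 3.04. With receptor loss 14 of the 31 rose and 7 fell in the authors' deposited table, beside 2.89% and 3.4% of all 10961 genes. With STAT5bCA 19 rose and 2 fell over aHepGHRkd, beside 2.65% and 0.739%. The lower member was Cabyr, a calcium-binding protein best known from sperm, at 8.39 against 3.64 TPM. In sum the male-biased list was at 48087 TPM in Control, 12659 TPM with receptor loss and 13423 TPM with STAT5bCA, and the female-biased list at 178, 605 and 2594 TPM. Neither sum was back at its Control level. The male-biased sum rests mainly on Mup3, Mup20, Serpina1e and Gstp1 (17395, 10536, 9135 and 4245 TPM in Control). It therefore says little of the other members, and 12 of the 26 rose as given above. Near copies, such as the Mup, Gstp and Cyp4a12 genes or the Cyp2b and Cyp3a genes, count as separate members in both lists. Of 12 transcription factors under GH control, Cux2 was the member 2-fold from Control. Bcl6, a male-biased repressor, was at 6.03, 16.6 and 9.83 TPM and fell with STAT5bCA (ratio 0.610, adjusted p = 7.37e-06, the authors' deposited table).

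**Figure D5:**
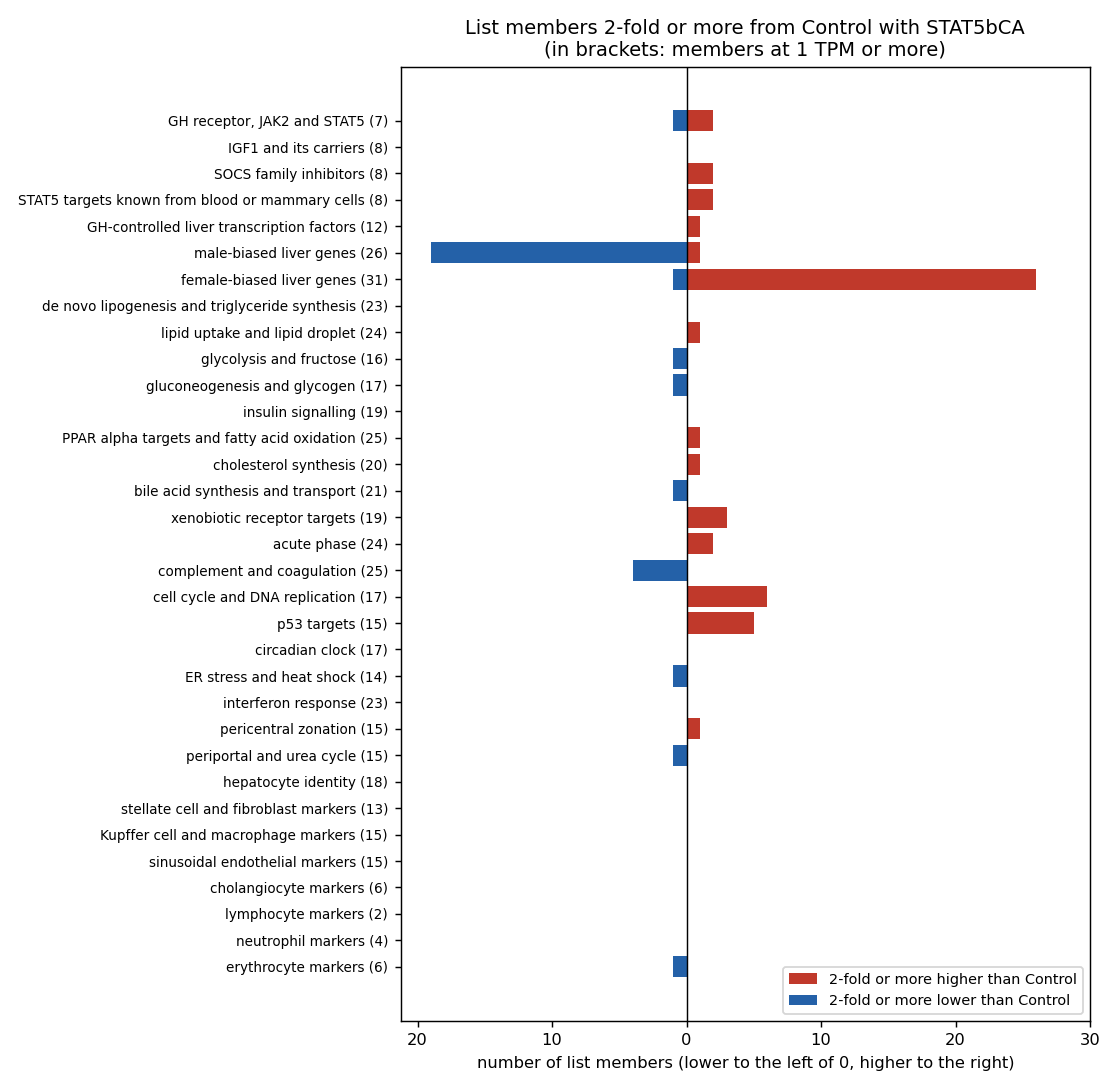
Numbers of members (x axis) 2-fold or more lower (blue, left of 0) or higher (red, right of 0) than Control with STAT5bCA in each of 33 gene lists (y axis), with the members at 1 TPM or more in brackets. The male-biased list has 19 lower and 1 higher of 26, the female-biased list 26 higher and 1 lower of 31, and no other list has more than 6 in either direction.

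Most genes in each list of sugar and lipid metabolism lay within 1.5-fold of Control, as did 95.0% of all coding genes. The share was lower for gluconeogenesis and glycogen (13 of 17), PPAR alpha and fatty acid oxidation (18 of 25) and cholesterol synthesis (14 of 20). Pck1 (2835 against 1839 TPM) and Acot1 (67.3 against 122 TPM) stood between 1.5- and 2-fold away. Among all coding genes 1.33% were higher than Control and 0.754% lower. None of the 23 lipogenesis and triglyceride synthesis genes at 1 TPM stood 2-fold from Control, and 22 lay within 1.5-fold. The fatty acid desaturase Scd1 and the synthase Fasn had risen with receptor loss (adjusted p = 0.0117 and 0.0234, the authors' deposited table) and were at 2489 and 53.8 TPM with STAT5bCA against 2267 and 41.9 TPM in Control. Neither fall from aHepGHRkd passed (adjusted p = 0.198 and 1, the authors' deposited table). Among 24 genes of lipid uptake and droplets Cd36 was the 1 higher, among 16 of glycolysis the regulator Pfkfb3 the 1 lower (6.07 against 2.69 TPM), and among 17 of gluconeogenesis and glycogen the glycogen-targeting subunit Ppp1r3g the 1 lower (1.71 against 0.638 TPM). Of 19 insulin signalling genes, 0 stood 2-fold from Control. Of 25 genes of PPAR alpha and fatty acid oxidation, the acyl-CoA thioesterase Acot3 was the 1 higher, at 19.5, 13.9 and 107 TPM, and it rose 7.97-fold over aHepGHRkd (adjusted p = 2.10e-33, the authors' deposited table). The cholesterol synthesis list of 20 had a median log2 fold of 0.43 with 1 higher member, Mvd (10.9 against 24.2 TPM), whose ratio over aHepGHRkd did not pass (1.67, adjusted p = 0.0678, the authors' deposited table). Of 21 bile acid genes, Slco1a1 was the 1 lower.

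Defence and growth-arrest genes followed. The terminal complement genes C6 (155 against 72.1 TPM), C8a (338 against 148 TPM), C8b (236 against 109 TPM) and C9 (308 against 114 TPM), whose products form the membrane attack complex, were the 4 lower members among 25 complement and coagulation genes (0.754% of all coding genes were lower), and 0 were higher. Others of that complex were within 1.5-fold, C5 (listed as Hc) at 248 against 216 TPM and C8g at 440.4 against 511 TPM, as were 18 of the 25 in all, and the list's median log2 fold was -0.03. C6 and C8b had risen over aHepGHRkd (3.06- and 1.66-fold, adjusted p = 5.07e-31 and 0.00251, the authors' deposited table), while C8a and C9 did not pass (adjusted p = 1 and 0.154, the same source). Of 24 acute phase genes 2 were higher, beside 1.33% of all coding genes: Lcn2, an iron-scavenging lipocalin (152 against 388 TPM), and Orm3, an orosomucoid (9.14 against 23.8 TPM). Among 15 p53 targets 5 were higher (1.33% of all coding genes were) and 6 lay within 1.5-fold. The list median was 0.675 on the log2 scale. The cell cycle inhibitor Cdkn1a was at 11.8 TPM in Control, 47.9 TPM with receptor loss, 57.6 TPM with rat IGF1 and 45.2 TPM with STAT5bCA, and Phlda3 at 2.06, 8.85, 8.98 and 11.5 TPM. Gdf15 (5.85 against 14.3 TPM), Eda2r (0.418 against 1.89 TPM) and Tnfrsf10b (0.267 against 1.01 TPM) were the others. All 5 were also above their Control level in both groups that had Cre without STAT5bCA, and Cre is absent from Control, so Cre and receptor loss cannot be told apart in them. Eda2r and Tnfrsf10b also rose over aHepGHRkd with STAT5bCA (1.725- and 1.95-fold, adjusted p = 0.0233 and 0.0165, the authors' deposited table), where both groups carry Cre. Tnfrsf10b was not called after receptor loss (adjusted p = 0.343, the same source) and passed the 1 TPM floor through the STAT5bCA group. Of 17 cell cycle genes at 1 TPM 6 were higher (1.33% of all coding genes were) and 9 lay within 1.5-fold. Ccnb2, Cdc20 and Mcm5 were under 1 TPM in Control and passed the floor through the STAT5bCA group. The floor therefore favours counting such genes as higher. Cyclin D1 (Ccnd1) was at 18.7, 69.7, 59.0 and 47.3 TPM in the 4 groups, whereas the mitotic genes Ccnb2 (0.471 against 1.91 TPM in Control and aHepGHRkd_STAT5bCA) and Cdc20 (0.228 against 2.05 TPM) rose over aHepGHRkd (adjusted p = 0.000407 and 0.0243, the authors' deposited table) from near the 1 TPM floor. Mcm2, Mcm3 and Mcm5, helicase subunits of DNA replication, were at 1.44, 2.06 and 0.750 TPM in Control. They were at 2.91, 3.61 and 1.54 TPM with receptor loss and at 3.49, 4.56 and 2.58 TPM with STAT5bCA. Mcm2 and Mcm3 had risen with receptor loss (adjusted p = 0.00515 and 0.0334, the authors' deposited table), and none of the 3 was called over aHepGHRkd. Cre and receptor loss cannot be told apart in these genes either.

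Other programmes each had 0 to 3 members 2-fold from Control, where 1.33% of all coding genes were higher and 0.754% lower. Of 19 targets of xenobiotic receptors 3 were higher: Cyp2b10, the glutathione transferase Gsta1 (4.04 against 10.4 TPM) and Gstm2 (100.0 against 230 TPM). Within 1.5-fold lay 14 of the 19, beside 95.0% of all coding genes. With receptor loss 10 of them rose and 1 fell (2.89% and 3.4% of all genes). With STAT5bCA 0 rose and 6 fell over aHepGHRkd (2.65% and 0.739%, the authors' deposited table). Of 15 pericentral genes Cyp2c37 was higher (297 against 618 TPM) and of 15 periportal genes Etnppl, a phosphoethanolamine lyase, was lower (120 against 42.0 TPM). The 17 clock genes and the 23 interferon response genes had 0 members at 2-fold. Among 14 genes of protein stress the asparagine synthetase Asns was lower (2.46 against 1.00 TPM).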

How the data were processed

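Liver RNA was sequenced from polyA-selected libraries, and the authors deposited 1 table of group values. Per the submitters' processing notes, reads were processed with STAR, featureCounts and edgeR on mm9, with versions and the use of strand not given in the sources used here. Per the file headers, TPM is 1 value per group and the fold is a linear ratio that the authors computed with edgeR for 3 comparisons. The deposited p-value was read as Benjamini-Hochberg adjusted, since 69174 of its values are exactly 1 for receptor loss and 72384 for STAT5bCA over receptor loss, and 9e-301 is its smallest printed value. Of 75798 features listed, 75794 were read and 4 lines were empty in the copy used here. Coding features carry an NM accession as gene type, and 20699 of 20879 matched a RefSeq symbol. TPM summed to 999989 in Control and 999981 in aHepGHRkd_STAT5bCA, with coding shares of 90.0% and 90.2%. Depth per library is unknown.

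Folds used a pseudocount of 0.1 TPM, a 1 TPM floor in the higher group and a 2-fold limit, in Python 3.11.15 with pandas 2.3.3 and numpy 2.4.6. Genes lowered or raised by receptor loss needed a deposited p under 0.05 and a deposited ratio of at least 2-fold, and were placed by their TPM fold against Control. The classing script was tested on simulated data. Genes were named by a rule: members of the receptor, IGF1 and SOCS lists, the 15 largest folds in each direction, the 10 largest of each class, and from the other 30 of 33 lists the members at 2-fold plus up to 4 of the most abundant. Not every gene so named is printed, and further genes given as examples were chosen after their values were seen. The members and lists were chosen with earlier results of these data known. Tests on counts, left-out replicates and a replicate block need values per library and were not run. Some genes are not reported here by name, although they are part of the counts.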

Additional observations from a re-analysis of the deposited data

How the results depend on the processing

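With 1 value per group, no spread between animals bounds any fold against Control, and low genes depend on the floor and pseudocount. No paired analysis was possible because the table holds no value per library, and for the same reason no replicate could be left out. The 145 higher genes became 325 at a limit of 1.5-fold, 75 at 3-fold, 285 with a floor of 0.1 TPM and 86 with a floor of 5 TPM. The 82 lower genes became 215, 35 and 136 under the first 3 of these. The 41 lowered genes back within 1.5-fold became 27 at 5 TPM and 239 with no fold limit on receptor loss, and the 19 raised genes back within 1.5-fold became 30 with a pseudocount of 1 TPM and 204 with no fold limit. The 58 genes that rose with STAT5bCA without a call after receptor loss became 89 at 1.5-fold, 103 at 0.1 TPM and 33 at 5 TPM, and the 4 that fell became 13 at 1.5-fold, 1 with a pseudocount of 1 TPM and 2 at 5 TPM. Each of these settings changes which genes can be counted by its construction. The counts of 57 lowered and 57 raised genes still away from Control, the 7 beyond Control and the 0 raised genes beyond it were within 1.5 times under every alternative run. These included centring on the median gene and the product of the authors' 2 deposited ratios, whose median differed from the TPM fold by 0.03 on the log2 scale. Stat3, at the Control level, changed sign under both of those.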

Other observations

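Of the genes 2-fold or more from Control with STAT5bCA, 19 higher and 15 lower ones passed neither deposited comparison. The 19 reached between 1.05 and 24.2 TPM in the higher group, with a median of 1.94 TPM, and the 15 between 1.24 and 391.9 TPM, with a median of 3.44 TPM. Tff3, a trefoil peptide made by mucus-secreting epithelium, was at 16.4 TPM in Control, 16.8 TPM with receptor loss, 4.98 TPM with rat IGF1 and 2.40 TPM with STAT5bCA. Its ratio of 0.157 over aHepGHRkd did not pass (adjusted p = 0.110, the authors' deposited table). The lymphoid chemokine Ccl21a (1.80 against 0.271 TPM) and its near copy Gm1987 (1.79 against 0.270 TPM) were also lower, and may share reads. Mup9, Mup17 and Mup19 belong here as well, with Mup17 at 391.9 against 131 TPM. Expression of these genes in a few animals of a group was not tested, since the table gives no value per animal.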
